A study of Mus musculus with 30 samples.

Results

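The Slc16 genes encode the monocarboxylate transporters, a family of carriers in the cell membrane. Its best known members, Slc16a1 (MCT1), Slc16a3 (MCT4) and Slc16a7 (MCT2), move lactate, pyruvate and ketone bodies across the membrane together with a proton. Glycolytic tumor cells shed lactate through such carriers, and the lactate that collects outside the cells is known to dampen NK and T cells. Other members carry other loads, such as aromatic amino acids, thyroid hormones, carnitine or creatine, and for several no load is settled. The genes followed here were 9 members chosen by symbol, Slc16a1, Slc16a3, Slc16a4, Slc16a6, Slc16a7, Slc16a9, Slc16a10, Slc16a11 and Slc16a13, of 48440 genes in the table. All 9 passed the filter on low counts, as did 16862 genes of the table. Among other Slc16 symbols, Slc16a12 and Slc16a14 passed, whereas Slc16a5 and Slc16a8 did not, with 15 counts each over all tumors.

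RNAseq had been performed on 30 tumors that grew in mice from 5 primary fibrosarcoma cell lines, each induced with methylcholanthrene (MCA) and each a single tumor-derived line, so that tumors of a line share 1 source. The study classed MCA-943 (n = 4) and MCA-969 (n = 8) as non-sensitive to NK1.1+ cells, and MCA-948 (n = 8), MCA-970 (n = 6) and MCA-972 (n = 4) as sensitive, by the survival of mice with or without an antibody to NK1.1. The sample labels give W-1D and W-2D of MCA-969 the opposite class, and both tumors were kept with their line. The strain label reads Ncr1Cre for the tumors of MCA-943 and Ncr1Cre R26DTA for those of the other 4 lines, all on a C57BL/6 background. Ncr1Cre drives Cre from the gene of the receptor NKp46, and R26DTA is an allele of the diphtheria toxin A chain that kills cells with Cre activity. The study had induced primary tumors in mice of both genotypes, and the growth label names C57BL/6 mice, so that the strain may be that in which each line arose; the labels do not say. The series describes growth in wild-type and NK cell-deficient mice without assigning tumors to them, and ages are not given. Hematopoietic cells had been depleted with CD45 beads before RNA extraction. In the tumor titles a letter (W or a) is followed by a code such as 1D or R; the sources used here do not explain either.

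Totals lay between 27745104 and 46537062 counts per tumor. Levels are given as CPM, counts per 1000000 after scaling of library sizes (TMM), and errors are SDs between tumors of 1 line. A count of 0 allows up to 3 counts, which is 0.0792 to 0.0907 CPM on average over the tumors of a line; this covers counting error only. MCA-969 W-2D had the lowest mean correlation with its own line, 0.968. Genes of fibroblasts and sarcoma (6 of 6 detected, Col1a1 and Vim among them) summed to medians between 13590 CPM in MCA-948 and 55527 CPM in MCA-943. Median sums of 4 leukocyte genes were between 3.22 CPM in MCA-969 and 32.6 CPM in MCA-943, and those of 5 endothelial genes between 58.8 CPM in MCA-972 and 422 CPM in MCA-970. Over single tumors the leukocyte sum was 9.45 to 72.4 CPM in MCA-943 and 2.26 to 12.7 CPM in MCA-969. For the other lists the median sums of the lines were 0.0889 to 2.88 CPM for T and NK cells, 16.4 to 64.95 for myeloid cells, 2.19 to 6.18 for skeletal muscle, 2.60 to 24.4 for adipocytes, 1.10 to 2.58 for keratinocytes, 263 to 915 for erythroid cells and 0.967 to 4.75 for Schwann cells; Ncr1 was at 0 in MCA-972 and Plin1 in MCA-970 and MCA-972. All 3 tested genes of the T and NK cell list were called higher in MCA-943 than in MCA-969 and in MCA-970 than in MCA-972, and 1 was called lower in MCA-948 than in MCA-970. Over all genes the shares called were 27.0%, 17.6% and 29.4%. In MCA-943 against MCA-969, 4 of 4 leukocyte and 3 of 6 myeloid genes were also called higher. So were 4 of 6 fibroblast and sarcoma genes and 1 of 2 of Schwann cells, with 1 of 5 endothelial genes lower. In MCA-970 against MCA-972, 4 of 5 endothelial and 1 of 6 fibroblast and sarcoma genes were called higher, and 1 of 2 of Schwann cells lower. The part of these cells in the results was not tested. The library numbers fall into 3 runs, with all 4 tumors of MCA-943 and 6 of MCA-948 in run 3, all 6 of MCA-970 and 2 each of MCA-948 and MCA-969 in run 2, and all 4 of MCA-972 and 6 of MCA-969 in run 1. Run and line were thus separable in part, and values with the run as a covariate or within run 2 are given where they change a call. MCA-948 alone links run 3 to the other runs. The index set, also used as a covariate, only sets run 3 against runs 1 and 2, so it is a coarser form of the run. For MCA-943, labelled strain and line cannot be told apart. In bulk RNA, fewer cells of a type and less RNA per cell cannot be told apart.

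Slc16a11 was picked because even its smallest difference between a non-sensitive and a sensitive line was large. Slc16a4 was picked because the study lists it among genes upregulated in non-sensitive tumors, a list without Slc16a11. Both choices rest on the contrast of the classes in these tumors. All differences between a non-sensitive and a sensitive line are therefore given as descriptions without a p-value. Tests were made within each class of lines (MCA-943 against MCA-969, and the 3 pairs of sensitive lines) and between the title letters within lines. Genes were called by edgeR's quasi-likelihood test if the p-value, adjusted over all tested genes by the Benjamini-Hochberg procedure, was under 0.05 and the log2 fold change at least 1 in either direction. Comparisons that name the same line share its tumors. Where nothing says that tumors came from separate cultures, the p-values measure only the spread between these tumors. The plot of the 9 members by tumor gives the values on which the rest is based.

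**Figure D1:**
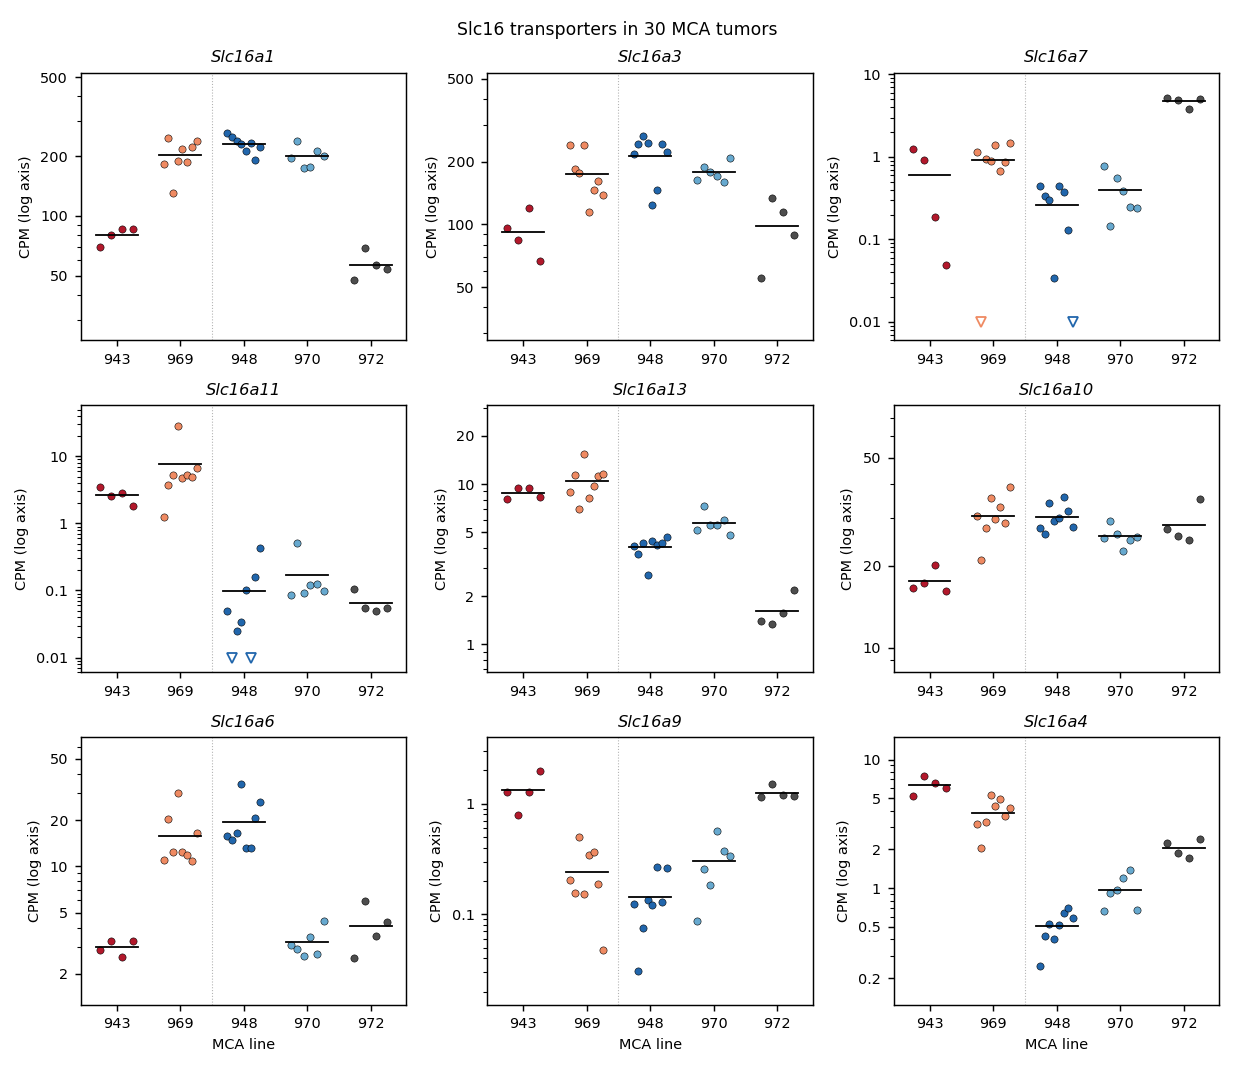
Level of the 9 Slc16 members in each of the 30 tumors, in CPM on a log axis, 1 panel per gene and 1 column per line. Points are tumors, short lines are means, open triangles at the bottom are tumors with 0 counts, and the dotted vertical line separates the non-sensitive lines MCA-943 and MCA-969 from the sensitive lines MCA-948, MCA-970 and MCA-972. Slc16a11 lay at 1.24 CPM or above in every tumor of the non-sensitive lines, W-1D and W-2D of MCA-969 included. It lay at 0.515 CPM or below in every tumor of the sensitive lines. Slc16a1 was lowest in MCA-943 and MCA-972, 1 line of each class.

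Slc16a1 and Slc16a3, but not the third lactate carrier Slc16a7, were the most abundant of the 9 members. Slc16a1 (ENSMUSG00000032902) lies on the forward strand of chr3:104638668-104658462 of GRCm38, where it overlaps the predicted genes Gm43581 and Gm43585, and Slc16a3 (ENSMUSG00000025161) on the forward strand of chr11:120948480-120960868. The bases just upstream of the RefSeq start of each gene are shown because they are rich in CG pairs and hold the letters ACGTG. These letters are a form of the core of the response element bound by hypoxia-inducible factors, which are known to switch on glycolytic genes. The sequences are from the RefSeq promoter table for GRCm38.p6, read 5' to 3' on the forward strand, with each match to ACGTG on either strand in capitals. The RefSeq start of Slc16a3, at base 120949067, lies inside the span given above, which is that of the GENCODE annotation and begins further upstream, so the bases shown lie within the GENCODE gene. The 14 bases next to that RefSeq start are left out because they are annotated as exon.
Slc16a1, chr3:104638414-104638663: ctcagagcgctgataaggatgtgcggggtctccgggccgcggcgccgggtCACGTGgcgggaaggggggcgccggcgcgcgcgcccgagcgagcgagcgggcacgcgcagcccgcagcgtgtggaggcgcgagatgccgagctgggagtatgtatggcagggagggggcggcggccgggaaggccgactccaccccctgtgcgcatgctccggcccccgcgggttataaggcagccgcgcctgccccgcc
Slc16a3, chr11:120948817-120949052: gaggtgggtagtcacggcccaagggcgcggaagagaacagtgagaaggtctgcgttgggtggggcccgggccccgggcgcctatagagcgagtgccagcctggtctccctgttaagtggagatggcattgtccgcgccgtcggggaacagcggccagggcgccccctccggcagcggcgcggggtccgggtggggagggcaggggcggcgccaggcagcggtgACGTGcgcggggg
The capitals upstream of Slc16a1 are 1 palindrome that is read as a match on both strands. Of the 250 bases before the start, 76.4% were G or C for Slc16a1, with 37 CG pairs, against a median of 52.4% and 6 CG pairs over all 32851 windows of the table. The 236 bases shown for Slc16a3 held 73.3% G or C and 25 CG pairs. The table holds 9 Slc16 symbols, 6 of them members, with windows from 250 bases before to 50 after the start. ACGTG was present on either strand in 3 of these 9 windows, those of Slc16a1, Slc16a3 and Slc16a12, and in 6447 (19.6%) of all windows; the windows of Slc16a4, Slc16a9, Slc16a10 and Slc16a11 held none. A match is a description of the letters and not a binding site.

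Slc16a1 encodes MCT1, which carries lactate in or out along its gradient. In MCA-943 its levels were 69.4, 80.5, 85.6 and 86.2 CPM, and in MCA-972 they were 47.3, 53.8, 56.8 and 68.6 CPM. The other 3 lines were higher, with a lowest, median and highest level of 192, 232 and 261 CPM in MCA-948, 131, 203 and 247 CPM in MCA-969, and 174, 198 and 238 CPM in MCA-970. The tumors of MCA-948, MCA-969 and MCA-970 overlapped with one another, while no tumor of MCA-943 or MCA-972 reached them, and MCA-943 lay wholly above MCA-972. Within the classes, Slc16a1 was higher in MCA-948 than in MCA-972 (log2 fold change 2.02, SE 0.14, adjusted p 1.99e-13 in edgeR) and higher in MCA-970 than in MCA-972 (1.82, SE 0.14, adjusted p 1.76e-11). It was lower in MCA-943 than in MCA-969 (-1.33, SE 0.13, adjusted p 6.69e-10). MCA-948 and MCA-970 differed by 0.20, which did not pass (adjusted p 0.0946). The spread of Slc16a1 thus ran across the classes of sensitivity: its differences between a non-sensitive and a sensitive line went from -1.51, for MCA-943 against MCA-948, to 1.83, for MCA-969 against MCA-972.

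Slc16a3 encodes MCT4, the carrier suited to lactate export from glycolytic cells. Its levels were 66.98, 83.9, 95.8 and 119.965 CPM in MCA-943 and 55.5, 89.3, 115 and 133 CPM in MCA-972. The lowest, median and highest levels were 124, 232 and 266 CPM in MCA-948, 115, 169 and 241 CPM in MCA-969, and 160, 174 and 207 CPM in MCA-970. In order of their means, from MCA-948 down to MCA-943, every line overlapped with the next. A single tested comparison was called, with Slc16a3 higher in MCA-948 than in MCA-972 (log2 fold change 1.12, SE 0.22, adjusted p 7.57e-05). That call rested on MCA-972 2G, the tumor lowest in Slc16a3, since the difference was 0.93 without it. With the run as a covariate the difference was 0.86 and was not called either. The differences of -0.94 between MCA-943 and MCA-969 (adjusted p 0.000579) and 0.86 between MCA-970 and MCA-972 (adjusted p 0.00279) passed the adjusted p but not the fold threshold. They were called without MCA-943 a-1G (-1.14) or MCA-969 a-1D (-1.02), and without MCA-972 a-1 (1.04), respectively, and the first also with the run as a covariate (-1.05).

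Per kb of exon, the scale on which genes can be set side by side, Slc16a1 averaged 12.8 to 51.9 CPM per kb over the 5 lines and Slc16a3 17.2 to 40.2 CPM per kb. The ratio of Slc16a3 to Slc16a1 per kb, taken from the means, was 0.949 in MCA-943, 0.773 in MCA-948, 0.724 in MCA-969, 0.742 in MCA-970 and 1.44 in MCA-972. Over single tumors this ratio was 0.976 to 1.68 in MCA-972 and 0.443 to 1.17 in the other lines together, so that the ranges overlapped. The sum of both genes was 77.4% (MCA-943) to 90.7% (MCA-970) of the level per kb of the 9 members. The sum over the 9 members was 45.7 CPM per kb in MCA-943 and 39.2 in MCA-972, against 86.6 in MCA-970, 95.5 in MCA-969 and 103 in MCA-948. The low sums belonged to 1 non-sensitive and 1 sensitive line.

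**Figure D2:**
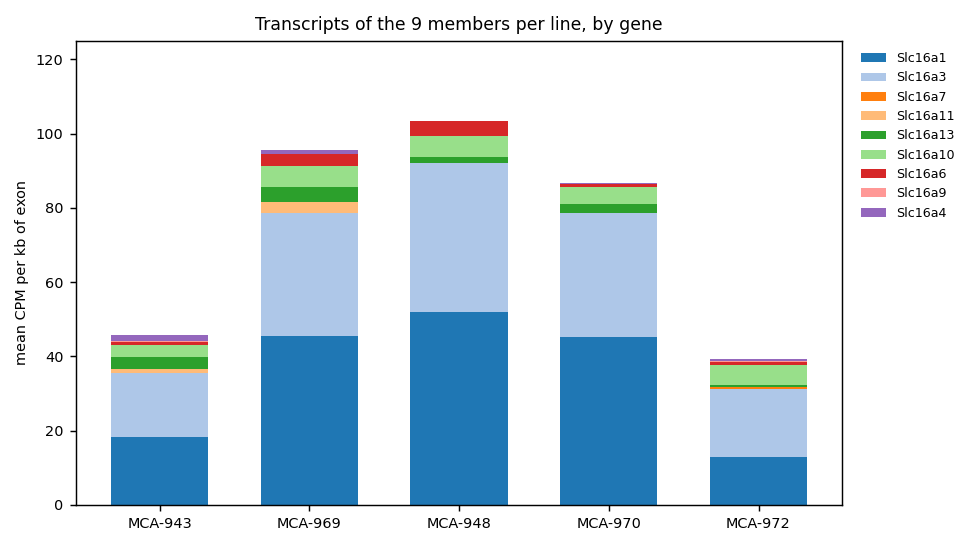
Mean level of the 9 members in each line, in CPM per kb of exon, stacked by gene. The bars of MCA-943 and MCA-972 reach 45.7 and 39.2 CPM per kb and those of the other lines 86.6 to 103, with Slc16a1 and Slc16a3 as the largest parts in all 5 lines.

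Slc16a7 (ENSMUSG00000020102, reverse strand, chr10:125219270-125389465) encodes MCT2, a carrier with high affinity for pyruvate and lactate. It was highest in MCA-972, where its levels were 3.79, 4.94, 5.04 and 5.16 CPM. In MCA-943 they were 0.049, 0.189, 0.912 and 1.25 CPM. From lowest over median to highest, levels were 0, 0.320 and 0.449 CPM in MCA-948, 0, 0.910 and 1.46 CPM in MCA-969, and 0.147, 0.318 and 0.783 CPM in MCA-970. Every tumor of MCA-972 lay above every tumor of the other 4 lines, and these overlapped with one another in the order of their means. Against MCA-972, Slc16a7 was lower in MCA-948 (log2 fold change -4.13, SE 0.60, adjusted p 8.56e-07) and in MCA-970 (-3.57, SE 0.65, adjusted p 5.08e-05), whereas MCA-943 against MCA-969 (-0.62, adjusted p 0.411) and MCA-948 against MCA-970 (-0.56, adjusted p 0.424; -2.43 within run 2, adjusted p 0.177) did not pass. MCA-972 was thus the line with the least Slc16a1 and the most Slc16a7.

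Partner proteins escort these carriers to the membrane, basigin (Bsg) for MCT1 and MCT4 and embigin (Emb) mainly for MCT2. Bsg had means between 457 CPM in MCA-948 and 657 CPM in MCA-970 and was called in none of the tested comparisons. Emb averaged 33.6 ± 5.10 CPM in MCA-972 (n = 4) and 113 to 144 CPM in the other lines. Emb was higher in MCA-948 (log2 fold change 2.01, SE 0.14, adjusted p 2.41e-13) and in MCA-970 (1.80, SE 0.14, adjusted p 2.20e-11) than in MCA-972. MCA-972 thus combined the highest Slc16a7 with the lowest level of its partner.

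Slc16a11 and Slc16a13 are neighbours on chromosome 11. Slc16a11 (ENSMUSG00000040938) lies on the forward strand of chr11:70212752-70216417 and Slc16a13 (ENSMUSG00000044367) on the reverse strand of chr11:70216789-70221064, so that their 3' ends face each other across 371 bases and neither overlaps another annotated gene. Slc16a11 encodes MCT11, linked to pyruvate transport and, in human genetics, to type 2 diabetes; Slc16a13 encodes MCT13, for which lactate transport has been reported. Whether strand was used in counting is not given in the sources used here, so reads that run past either 3' end cannot be assigned to a gene by strand.

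Slc16a11 was expressed in the tumors of the non-sensitive lines and close to the limit of detection in most tumors of the sensitive lines. In MCA-943 its levels were 1.84, 2.56, 2.87 and 3.49 CPM. In MCA-969 they were 1.24 CPM in W-1D, 3.77 in W-2D, 28.8 in WR and 4.74 to 6.62 CPM in the remaining 5 tumors, with a median of 5.12. WR alone lay above 6.62 CPM; the mean of MCA-969 was 7.59 ± 8.73 CPM with it (n = 8) and 4.56 ± 1.69 CPM without it (n = 7). In MCA-972 the levels were 0.0489, 0.0546, 0.0557 and 0.104 CPM. In the larger groups the lowest, median and highest levels were 0, 0.0418 and 0.425 CPM in MCA-948, where 2 of 8 tumors had no count, and 0.087, 0.108 and 0.515 CPM in MCA-970. No tumor of a sensitive line reached the lowest tumor of a non-sensitive line. The 3 sensitive lines overlapped with one another and MCA-943 with MCA-969. This split is by line: W-1D and W-2D, the 2 lowest tumors of MCA-969, are those labelled with the opposite class. They are also the 2 tumors of that line in run 2.

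The differences that selected Slc16a11 were, as log2 fold changes, 4.77 (SE 0.67), 4.01 (0.71) and 5.28 (0.92) for MCA-943 over MCA-948, MCA-970 and MCA-972, and 6.27 (0.63), 5.50 (0.68) and 6.77 (0.90) for MCA-969 over the same lines. By the smallest of its 6 values, 4.01, Slc16a11 ranked 3 of 110 genes called higher in all 6, between Plet1 with 5.60 and Cdh3 with 3.81. The smallest value of Slc16a4 was 0.90, under the fold threshold, for MCA-969 against MCA-972. Slc16a11 was called in 6, Slc16a4 in 5 and Slc16a13 in 4 of the 6, each time higher in the non-sensitive line. Slc16a1 was called in 3 (1 higher, 2 lower), Slc16a6 in 3 (2 higher, 1 lower), Slc16a7 in 3 (1 higher, 2 lower), Slc16a9 in 3 (2 higher, 1 lower), Slc16a3 in 1, lower, and Slc16a10 in none. Of the 9 members, 7 passed in MCA-943 over MCA-948, 4 in MCA-943 over MCA-970, 4 in MCA-943 over MCA-972, 4 in MCA-969 over MCA-948, 3 in MCA-969 over MCA-970 and 6 in MCA-969 over MCA-972. Over all genes the shares called were 29.0%, 27.3%, 25.6%, 20.8%, 21.4% and 20.6% in the same order.

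Within the classes, Slc16a11 was lower in MCA-943 than in MCA-969 (log2 fold change -1.498, SE 0.60, adjusted p 0.0307). WR carried much of this difference, which was -0.76 and not called without it; it was also not called without MCA-943 a-1D (-1.47) or without MCA-943 a-R (-1.35). With the run as a covariate it turned to 2.88 and with the index set to 1.28, neither called, and it was not called by limma-voom (-1.01) or without the filter on low counts. In the fits with the run or the index set, MCA-943 is tied to MCA-969 only through MCA-948, at 0 to 13 counts of Slc16a11 per tumor. Among the sensitive lines no difference passed, with values of -0.76 for MCA-948 against MCA-970 (SE 0.81, adjusted p 0.406), 0.51 for MCA-948 against MCA-972 (SE 1.05, adjusted p 0.691) and 1.27 for MCA-970 against MCA-972 (SE 1.04, adjusted p 0.324). At 0 to 0.515 CPM such differences were not detectable at this depth. With the run as a covariate, however, MCA-948 and MCA-970 were called above MCA-972, at 3.94 and 3.16, a fit in which all 4 tumors of MCA-972 are tied to the others only through MCA-969. Both MCA-948 tumors of run 2, a-2G with 0.156 CPM and a-R with 0.425 CPM, were the highest of their line, above the 6 tumors of run 3 at 0.1003 CPM or less, and within run 2 MCA-948 over MCA-970 was 0.79 (adjusted p 0.418).

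Slc16a13 was measured in every tumor and followed another range. Its levels were 8.10, 8.25, 9.45 and 9.47 CPM in MCA-943 and 1.34, 1.41, 1.56 and 2.17 CPM in MCA-972. The lowest, median and highest levels were 2.70, 4.24 and 4.65 CPM in MCA-948, 7.03, 10.4 and 15.5 CPM in MCA-969, and 4.81, 5.59 and 7.28 CPM in MCA-970. The lines thus stood in the order MCA-969, MCA-943, MCA-970, MCA-948 and MCA-972, where MCA-969 overlapped with MCA-943 and, through its lowest tumor W-2G, with the highest of MCA-970, W-2D. Among the sensitive lines, Slc16a13 was higher in MCA-970 than in MCA-972 (log2 fold change 1.82, SE 0.19, adjusted p 7.81e-09) and higher in MCA-948 than in MCA-972 (1.32, SE 0.18, adjusted p 3.01e-07). MCA-948 against MCA-970 was -0.50 (adjusted p 0.00337), under the fold threshold, and MCA-943 against MCA-969 was -0.24 (adjusted p 0.209). The values of Slc16a11 over MCA-972 had the same sign in MCA-970 (1.27, SE 1.04) and MCA-948 (0.51, SE 1.05). They rested on 0 to 14 counts per tumor and were called only with the run as a covariate. Over the 6 differences between the classes, Slc16a13 ranged from 0.62 to 2.68, below Slc16a11 in each. The difference between the genes was itself not tested.

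Per kb of exon, Slc16a11 stood at 0.311 of Slc16a13 in MCA-943 and 0.742 in MCA-969, taken from the means, against 0.0249 in MCA-948, 0.0307 in MCA-970 and 0.0414 in MCA-972. In MCA-969 this ratio ran from 0.141 to 1.90 over the tumors, with WR at the top. Of the summed level per kb of the 9 members, Slc16a11 made up 2.30% in MCA-943 and 3.11% in MCA-969, and 0.0374% to 0.0779% in the sensitive lines. The tumor highest in Slc16a11 was also highest in Slc16a13 in MCA-969 (WR), in MCA-970 (W-2D) and in MCA-948 (a-R). In MCA-972 the highest tumors differed (2G and a-R). In MCA-943 the tumor highest in Slc16a11, W-2G, was the lowest in Slc16a13. Over the tumors of a line, Pearson's r between the log2 CPM of both genes was 0.904 in MCA-970 (n = 6, exact permutation p 0.0181, adjusted 0.108; rho 0.829, p 0.0583, adjusted 0.193), 0.623 in MCA-969 (n = 8, p 0.0864 by exact permutation, adjusted 0.259; rho 0.429, p 0.299, adjusted 0.598) and 0.443 in MCA-948 (n = 8, p 0.252 by exact permutation, adjusted 0.504; rho 0.695, p 0.0645, adjusted 0.193). Without the 2 tumors farthest from the median, r was 0.599, -0.03 and 0.154, so that in MCA-969 the relation rested on those tumors. In MCA-948 it varied with the prior count of the log2 scale: at 0.5 in place of 2, r was 0.388 with all tumors and 0.383 without those 2. The r of 0.904 in MCA-970 rested on few counts of Slc16a11, 14 in W-2D and 3 or 4 in each other tumor. Slc16a13 had 177 to 199 counts in that line, with 198 in W-2D, the tumor with the lowest total (27745104 counts). The part of the library totals in the r of MCA-970 was not tested. For Slc16a1 with Slc16a3, r was 0.191 in MCA-948, -0.30 in MCA-969 and 0.192 in MCA-970 (exact permutation p 0.65, 0.485 and 0.714, adjusted 0.714 in each). Spearman's rho was 0.214, -0.26 and 0.0857 (exact permutation p 0.619, 0.536 and 0.919, adjusted 0.743, 0.743 and 0.919), and r without the 2 tumors farthest from the median was 0.624, -0.66 and 0.0106. None of these 6 relations passed after adjustment over the 6, with two-sided tests.

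**Figure D3:**
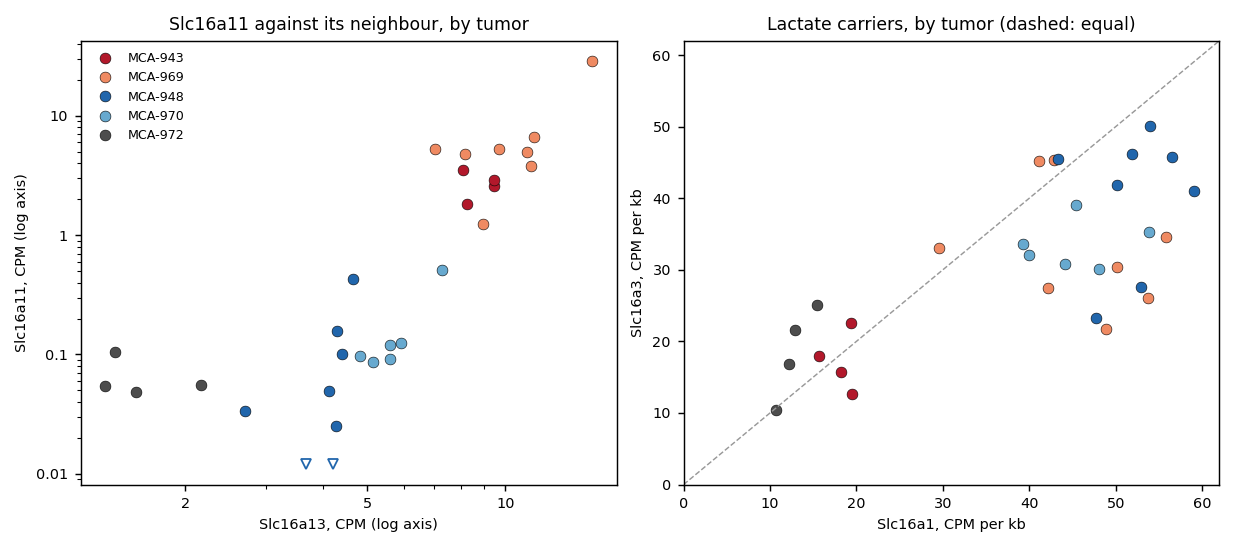
Left, Slc16a11 against Slc16a13 in CPM, both axes logarithmic, 1 point per tumor and colour by line, with the 2 MCA-948 tumors at 0 counts of Slc16a11 as triangles. Right, Slc16a3 and Slc16a1 in CPM per kb of exon with a dashed line of equality. The tumors of MCA-943 and MCA-969 stand apart on the Slc16a11 axis at 1.24 CPM and above. On the right, the tumors of MCA-943 and MCA-972 share the lower corner.

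The other annotated neighbours of Slc16a11 gave little signal on the upstream side. Of the 4 nearest genes before it, Asgr2, Gm12311 and Mgl2 had 9, 1 and 161 counts over all 30 tumors and did not pass the filter; Clec10a, a lectin of macrophages and dendritic cells 41917 bases away, passed with 130 counts. Clec10a was higher in MCA-943 than in MCA-969 (log2 fold change 3.41, SE 0.86, adjusted p 0.00113), the direction opposite to that of Slc16a11. Its means were 0.208 CPM in MCA-943 and 0.0160 CPM in MCA-969. The second is under the 0.0812 CPM that 3 counts make there, so the size of this difference is uncertain. The summed level of 6 myeloid genes, Clec10a among them, was 15.5 to 93.8 CPM in MCA-943 and 11.2 to 49.4 CPM in MCA-969, and its part in the result was not tested. On the other side, beyond Slc16a13, Bcl6b, a transcriptional repressor, lies 7710 bases away and averaged 28.2, 24.8, 36.4, 58.0 and 16.9 CPM in MCA-943, MCA-948, MCA-969, MCA-970 and MCA-972. Bcl6b was called lower in MCA-948 than in MCA-970 (-1.23, SE 0.21, adjusted p 6.75e-06) and higher in MCA-970 than in MCA-972 (1.78, SE 0.27, adjusted p 3.39e-06). Its highest line, MCA-970, was also the line with the most endothelial RNA, with 5 genes summing to 251 to 454 CPM against 15.7 to 313 CPM in all other tumors; the part of these cells was not tested. Mir497b and Mir497 had 0 and 1 counts.

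Among the 5 genes whose profile over the 30 tumors lay closest to Slc16a11, by the root mean square difference of centred log2 CPM, were Zfp783 (1.21), Cdh3 (1.22) and C430042M11Rik (1.24). Among the members, Slc16a4 came next at rank 89 (1.72) and Slc16a13 at rank 223 (1.95). The remaining 6 members ranked between 8858 and 15878 of 16862 genes. The profile over all 30 tumors holds the differences between the classes on which Slc16a11 and Slc16a4 were picked. These ranks are therefore descriptions only.

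Slc16a4 (ENSMUSG00000027896, forward strand, chr3:107291230-107312115) encodes MCT5, whose load is not settled; it lies 2632767 bases from Slc16a1. Its levels were 5.22, 6.05, 6.61 and 7.42 CPM in MCA-943 and 1.71, 1.88, 2.27 and 2.39 CPM in MCA-972. From lowest over median to highest, levels were 0.249, 0.526 and 0.704 CPM in MCA-948, 2.04, 3.91 and 5.26 CPM in MCA-969, and 0.667, 0.948 and 1.40 CPM in MCA-970. MCA-972 overlapped with MCA-969, so that the classes were not apart for this gene. The differences of Slc16a4 between the classes were 3.63 (SE 0.23), 2.70 (0.24) and 1.62 (0.26) for MCA-943 and 2.91 (0.20), 1.99 (0.21) and 0.90 (0.23) for MCA-969, over MCA-948, MCA-970 and MCA-972. Among the sensitive lines, Slc16a4 was lower in MCA-948 than in MCA-972 (log2 fold change -2.01, SE 0.23, adjusted p 1.09e-08) and lower in MCA-970 than in MCA-972 (-1.09, SE 0.24, adjusted p 0.000512). With the run as a covariate these differences were -0.95 and -0.37, and neither was called. MCA-948 against MCA-970 was -0.93 (SE 0.22, adjusted p 0.00046) and -0.57 within run 2 (adjusted p 0.212). Among the tumors left out in turn, it was called without MCA-948 a-2G (-1.01), MCA-970 W-1D (-1.02) or MCA-970 a-2G (-1.02). The call between MCA-970 and MCA-972 was also lost without MCA-970 W-1D or without a-2G (-0.998 and -0.997). MCA-943 against MCA-969 (0.71, adjusted p 0.00515) was called at 1.76 with the run and at 1.20 with the index set as a covariate.

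Slc16a10 (ENSMUSG00000019838, reverse strand, chr10:40033532-40142258) encodes TAT1, a carrier of aromatic amino acids, and was the member whose line means differed least. Its levels were 16.2, 16.6, 17.2 and 20.2 CPM in MCA-943 and 24.9, 25.8, 27.3 and 35.2 CPM in MCA-972. In the larger groups the lowest, median and highest levels were 26.2, 29.6 and 35.9 CPM in MCA-948, 20.9, 30.2 and 39.0 CPM in MCA-969, and 22.7, 25.4 and 29.2 CPM in MCA-970. No comparison called Slc16a10, although MCA-943 lay under all other lines and its difference to MCA-969 passed the adjusted p (-0.80, SE 0.12, adjusted p 1.95e-06).

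Slc16a6 and Slc16a9 were called between lines of the same class in both classes. Slc16a6 (ENSMUSG00000041920, reverse strand, chr11:109450855-109473598) encodes MCT7, linked to ketone body export from liver cells, and overlaps Amz2 and Arsg on the other strand, so its counts are uncertain where strand was not used. Slc16a9 (ENSMUSG00000037762, forward strand, chr10:70245100-70285968) encodes MCT9, linked to carnitine, and overlaps Gm7097 and Gm9877 on the other strand. Slc16a6 stood at 2.57, 2.85, 3.28 and 3.28 CPM in MCA-943, at 2.53, 3.54, 4.34 and 5.98 CPM in MCA-972, and at 2.63, 2.99 and 4.43 CPM (lowest, median, highest) in MCA-970. In MCA-948 it reached 13.1, 16.2 and 34.4 CPM and in MCA-969 10.8, 12.4 and 29.9 CPM, the last in WR. Every tumor of MCA-948 and MCA-969 thus lay above every tumor of the other 3 lines. Slc16a6 was called lower in MCA-943 than in MCA-969 (log2 fold change -2.38, SE 0.31, adjusted p 1.11e-07) and higher in MCA-948 than in MCA-970 (2.59, SE 0.26, adjusted p 7.05e-10) and MCA-972 (2.24, SE 0.30, adjusted p 1.96e-07). Within run 2, MCA-948 over MCA-970 was 2.88 (adjusted p 1.296e-05).

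Slc16a9 was highest in other lines than Slc16a6. Its levels were 0.789, 1.28, 1.29 and 1.98 CPM in MCA-943 and 1.15, 1.17, 1.20 and 1.501 CPM in MCA-972. The lowest, median and highest levels were 0.0306, 0.128 and 0.266 CPM in MCA-948, 0.048, 0.198 and 0.496 CPM in MCA-969, and 0.087, 0.298 and 0.568 CPM in MCA-970. MCA-943 and MCA-972, 1 line of each class, lay above the other 3 without overlap. Slc16a9 was higher in MCA-943 than in MCA-969 (log2 fold change 2.44, SE 0.38, adjusted p 2.88e-06) and lower in MCA-948 (-3.11, SE 0.40, adjusted p 9.76e-08) and in MCA-970 (-2.04, SE 0.41, adjusted p 0.000173) than in MCA-972. With the run as a covariate these last differences were -2.16 and -1.52, and neither was called. The call of MCA-948 against MCA-970 (-1.07, SE 0.41, adjusted p 0.0228) was lost within run 2 (-0.62, adjusted p 0.431), with the run or the index set as a covariate (-0.64 in both), without MCA-970 a-1D (-0.80), without MCA-948 W-2D (-0.98) and without MCA-948 W-1G (-0.93).

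Counted over the 9 members, 4 were called between MCA-943 and MCA-969 (1 higher, 3 lower in MCA-943), where 27.0% of all genes were called. In MCA-948 against MCA-970 the count was 2 (1 higher, 1 lower) against 29.4%. In MCA-948 against MCA-972 it was 7 (4 higher, 3 lower) against 26.8%, and in MCA-970 against MCA-972 it was 5 (2 higher, 3 lower) against 17.6%. The median log2 fold change of the members was -0.80, -0.50, 0.51 and -0.14 in these comparisons, beside -0.04, -0.05, 0.01 and 0.01 over all genes.

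**Figure D4:**
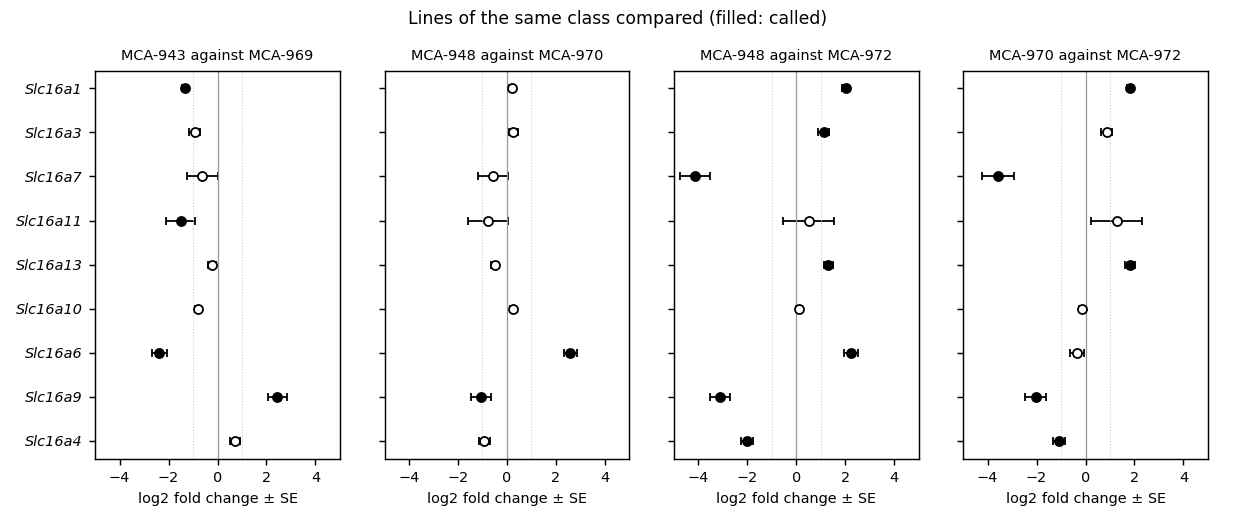
Log2 fold change of the 9 members, with its SE, in the 4 comparisons between lines of the same class. Filled points were called (adjusted p under 0.05 and a log2 fold change of at least 1 in either direction), open points were not, and dotted lines mark a log2 fold change of 1 in either direction; Slc16a1 stands at 2.02 and 1.82 in the comparisons with MCA-972 and Slc16a10 within 1 in all 4.

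Among the Slc16 genes outside the 9 members, Slc16a14, an orphan member, had 0 counts in all 4 MCA-943 tumors, which allows up to 0.0906 CPM. It stood at 1.13 to 8.95 CPM in MCA-969, with a mean of 4.64 ± 2.84 CPM (n = 8), at least 51.2-fold higher than in MCA-943 (adjusted p 2.95e-09). In the sensitive lines Slc16a14 averaged 0.0668, 0.143 and 0.174 CPM. Slc16a12, a creatine carrier, averaged 0.0468 CPM in MCA-943 and 0.899 CPM in MCA-972, and was called lower in MCA-943 than in MCA-969 (-2.51, SE 0.97, adjusted p 0.0261) and lower in MCA-948 than in MCA-972 (-1.95, SE 0.62, adjusted p 0.00776). All 4 tumors of MCA-943 and 4 of 8 of MCA-948 held 3 counts or fewer of Slc16a12, so the size of these differences is uncertain.

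**Figure D5:**
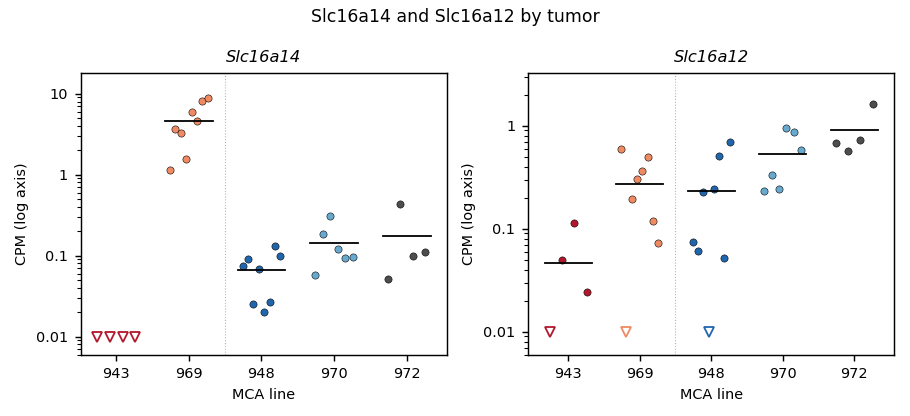
Level of Slc16a14 and Slc16a12 in each tumor, in CPM on a log axis, by line; short lines are means and open triangles are tumors with 0 counts. Slc16a14 is above 1 CPM in every MCA-969 tumor and at 0 in the 4 tumors of MCA-943.

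Genes that handle lactate and pyruvate were called in both directions over the tested comparisons, at shares near those over all genes. Of 19 genes of lactate and pyruvate handling 16 passed the filter; of these 1 was called higher and 4 lower in MCA-943 than in MCA-969, while the counts were 0 and 4 in MCA-948 against MCA-970, 2 and 3 in MCA-948 against MCA-972, and 1 and 1 in MCA-970 against MCA-972. The share called over all genes was 27.0%, 29.4%, 26.8% and 17.6% in these comparisons, so that the counts of 5, 4, 5 and 2 of 16 do not set the list apart. Their median log2 fold changes were -0.40, -0.31, -0.10 and 0.12. Ldha, the lactate dehydrogenase chain that favours lactate, averaged 1611 ± 365 CPM in MCA-948 (n = 8) and 565 ± 117 CPM in MCA-972 (n = 4) and was called between them (1.51, SE 0.18, adjusted p 1.52e-08), as was Slc16a1. Ldhb, the chain that favours pyruvate, was lower in MCA-948 than in MCA-970 (-2.10, SE 0.15, adjusted p 1.02e-12) and MCA-972 (-1.67, SE 0.17, adjusted p 9.25e-10). MCA-948 thus had the highest mean of Slc16a1 and Ldha and the lowest of Ldhb among the sensitive lines.

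Between the non-sensitive lines, MCA-943 was lower in the glucose carrier Slc2a1 (log2 fold change -1.68, SE 0.29, adjusted p 1.58e-05), in hexokinase Hk2 (-1.34, SE 0.24, adjusted p 2.15e-05) and in Pfkfb3, an activator of glycolysis (-1.86, SE 0.32, adjusted p 1.14e-05), alongside the lower Slc16a1. It was also lower in Ldhd, which acts on D-lactate (-4.22, SE 0.32, adjusted p 3.01e-12), and higher in Mpc1, a subunit of the mitochondrial pyruvate carrier (1.87, SE 0.13, adjusted p 1.18e-12). Of the kinases that hold back pyruvate dehydrogenase, Pdk1 was called higher (1.35, SE 0.25, adjusted p 3.54e-05) and Pdk2 (-2.07, SE 0.23, adjusted p 5.69e-09) and Pdk4 (-1.94, SE 0.33, adjusted p 7.68e-06) lower in MCA-948 than in MCA-972.

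All 3 enzymes of ketone body use were tested. Oxct1, which activates ketone bodies for burning, was higher in MCA-943 than in MCA-969 (log2 fold change 1.80, SE 0.14, adjusted p 4.57e-12) and lower in MCA-948 than in MCA-972 (-1.10, SE 0.14, adjusted p 5.97e-08). Bdh1, which interconverts the main ketone bodies, was higher in MCA-948 (1.39, SE 0.31, adjusted p 3.00e-04) and in MCA-970 (1.43, SE 0.32, adjusted p 0.000584) than in MCA-972, and none of the 3 was called between MCA-948 and MCA-970. Of 8 genes of aromatic amino acid transport and thyroid hormone action 7 passed the filter, with 1 called between MCA-943 and MCA-969, higher in MCA-943, and then 1 higher and 3 lower in MCA-948 against MCA-970, and 0 and 3 in each comparison with MCA-972, beside 27.0%, 29.4%, 26.8% and 17.6% of all genes. The 3 were the deiodinases Dio2 and Dio3 and the receptor Thrb. Dio2, which makes the active hormone, averaged 51.7 ± 13.7 CPM in MCA-972 (n = 4) and 1.77 ± 0.707 CPM in MCA-948 (n = 8), with a log2 fold change of -4.86 (SE 0.32, adjusted p 3.05e-13).

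The title letter made no difference that passed for any member. Over 26 tumors of the 4 lines that have both letters, W against a called 0 of the 9 members, beside 38 of 16557 genes (0.230%), 1217 at an unadjusted p under 0.05 and 57 genes called by DESeq2. At an unadjusted p under 0.05, 2 members were found by edgeR. For Slc16a3 the log2 fold change of W over a was 0.32 (SE 0.11, unadjusted p 0.00868, adjusted p 0.442), with means of 243 against 184 CPM in MCA-948, 210 against 140 CPM in MCA-969 and 177 against 179 CPM in MCA-970. For Slc16a4 it was -0.41 (SE 0.14, unadjusted p 0.00815, adjusted p 0.442), with means of 0.404 against 0.613, 3.43 against 4.27 and 0.855 against 1.09 CPM in the same lines. The T and NK cell list was Cd3e, Cd3g, Ncr1, Klrb1c and Gzma. Line means were at most 0.416 CPM for Cd3e and 0.446 CPM for Cd3g. Of the 5 genes, 3 passed the filter, and all 3 were called higher in W, with a median log2 fold change of 5.06. Their summed level over the list of 5 was 0.557 to 2.97 CPM in W against 0.0327 to 0.14 CPM in a in MCA-948, 0.274 to 1.39 against 0.0474 to 0.21 CPM in MCA-969, 1.07 to 9.497 against 0.149 to 0.435 CPM in MCA-970, and 13.6 CPM in the 1 W tumor against 1.55 to 3.43 CPM in MCA-943, without overlap in any of the 4 lines. The part of these cells in the values of Slc16a3 and Slc16a4 was not tested. In a test of whether the letter acted differently between lines, the lowest adjusted p of a member was 0.565, for Slc16a1.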

How the data were processed

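RNA was sequenced from 30 tumors of 5 MCA-induced cell lines. The authors aligned reads with STAR 2.5.3a to GRCm38 and took counts per gene with featureCounts (1.5.2 per the submitters' processing notes); column names state removal of duplicates by molecular identifiers. The deposited values are counts without normalization, and all 30 sample columns were used. Names and positions are from GENCODE mouse release 21, promoter windows from RefSeq (GRCm38.p6).

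Counts were filtered (filterByExpr by line), scaled by TMM and fitted with edgeR's robust quasi-likelihood model over all 30 tumors with the line as factor; the biological coefficient of variation was 0.221. The letters were fitted over 26 tumors with the line as covariate. Adjusted p-values (Benjamini-Hochberg) cover all genes tested. Log2 CPM used a prior count of 2. Relations within lines were tested by exact permutation, two-sided. The method was tested on simulated data.

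The members and lists were chosen with earlier results of these data known. Named are the members, the other Slc16 symbols, the partner proteins, 3 pathway lists, the 4 nearest genes on each side of Slc16a11 and the 5 genes closest to it in profile (some Slc16 and profile genes are not reported here); Plet1 and Cdh3 are named as the neighbours of Slc16a11 in rank. Markers of 10 cell types were summed. Alternatives were DESeq2, limma-voom, DESeq2 size factors, no filter, no fold threshold, run or index set as covariate, values within a run, a replicate block, leaving out the 2 tumors with the opposite label, and leaving out each tumor. Models ran in R 4.3.3 (DESeq2 1.42.0, limma 3.58.1, edgeR 4.0.16). Summaries and figures were made in Python 3.11.15, by way of pandas 2.3.3, scipy 1.17.1, matplotlib 3.10.9 and numpy 2.4.6.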

Additional observations from a re-analysis of the deposited data

Results flagged for a closer look

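Of 45 sets of tumors (9 members in 5 lines), 6 held a tumor farther from the rest than Dixon's critical value. For normally distributed values chance gives about 1 in 20, a rate that may not hold for values of few counts. Slc16a11 accounted for 4 of the 6. It stood at 28.8 CPM in MCA-969 WR, beside 6.62 CPM in the next tumor, at 0.515 CPM in MCA-970 W-2D, beside 0.124, at 0.425 CPM in MCA-948 a-R, beside 0.156, and at 0.104 CPM in MCA-972 2G, beside 0.0557. In counts, these were 14 beside 4 in MCA-970, 13 beside 6 in MCA-948 and 4 beside 2 in MCA-972. The other 2 were in MCA-972: Slc16a7 was lowest in a-1G at 3.79 CPM, with the next tumor at 4.94, and Slc16a9 was highest in a-1 at 1.501 CPM, with the next tumor at 1.20.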

How the results depend on the processing

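The number of members called moved by more than 1.5 times under few alternatives. Without the fold threshold it was 7 in MCA-943 against MCA-969 and 5 in MCA-948 against MCA-970. MCA-948 against MCA-970 gave 1 with the run as covariate, 1 with the index set and 1 within run 2. Leaving out 1 tumor gave 3 to 5 in MCA-943 against MCA-969, 1 to 3 in MCA-948 against MCA-970, 6 to 7 in MCA-948 against MCA-972, 4 to 6 in MCA-970 against MCA-972 and 0 to 0 for the letter. Tumor codes did not pair the tumors (29 pairs of the same code, r -0.43 to 0.411, 8 over 0.1). With the code as a replicate block, the counts were 3, 2, 6, 3 and 0 in the same order. The calls not made with the block were those of Slc16a11 in MCA-943 against MCA-969 (-1.08), of Slc16a3 in MCA-948 against MCA-972 (0.80), and of Slc16a4 (-0.95) and Slc16a9 (-1.48) in MCA-970 against MCA-972.

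Slc16a11 turned direction most often: in MCA-943 against MCA-969 with the run (2.88) and the index set (1.28), in MCA-948 against MCA-970 with the run (0.78), with the index set (0.78) and within run 2 (0.79), and in MCA-948 against MCA-972 with limma-voom (-0.31) and, over tumors left out, between -0.24 and 0.81. With either covariate, MCA-943 is tied to MCA-969 only through MCA-948, at 0 to 13 counts of Slc16a11 per tumor. Slc16a10 turned in MCA-970 against MCA-972 with the run (0.18). For the letter, where no member was called, values turned for Slc16a1 (0.0466), Slc16a3 (-0.0124), Slc16a6 (-0.29), Slc16a10 (0.15) and Slc16a13 (0.15) within run 2, for Slc16a4 (0.0018), Slc16a7 (-0.27) and Slc16a13 (0.15) within run 1, and for Slc16a7 (-0.16) and Slc16a11 (-0.0570) with limma-voom. Leaving out a tumor gave letter values of -0.0668 to 0.0173 for Slc16a1, -0.35 to 0.57 for Slc16a11 and -0.107 to 0.00913 for Slc16a13. The r of Slc16a11 with Slc16a13 in MCA-969 turned to -0.0318 without 2 tumors. The smallest of the 6 differences of Slc16a11 was 3.12 with the run and 4.72 with the index set. Of the results under alternatives other than leaving out a tumor, 437 kept direction and side of the threshold, 14 lost a call, 5 gained one, 18 reversed and 7 were counts or values that moved. The causes were not tested. Slc16a11 in sensitive tumors and both Slc16a14 and Slc16a12 in MCA-943 are at or near the limit of 3 counts, so their order there was not detectable at this depth.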
